A study of Homo sapiens with 12 samples.

Results

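The antiviral interferon effector genes described here are genes whose products block or sense virus replication inside a cell and whose transcription interferons raise. The list held 49 symbols, all of which were present among the 38478 genes of the deposited table, and a gene was kept as a member when it had at least 10 reads on average over the 12 samples. By that rule 32 of the 49 genes were members, out of 12816 genes in all that passed the same minimum, and the other 17 listed genes lay under it.

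The RNA came from OPM-1, a line grown from human multiple myeloma, and was sequenced after 48 h in 4 conditions with 3 biological replicates each. The cells received the solvent DMSO alone, 0.1 μM lenalidomide (LEN), 1 μM of the RUNX inhibitor AI-10-104 (RUNXi), or LEN and RUNXi together at these concentrations (LEN+RUNXi). All 4 conditions were the same single cell line, with no virus and no interferon named among the treatments. The comparisons ask how each drug, and the 2 drugs together, changed transcription in these cells.

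Interferons bind cell surface receptors that activate the kinases JAK1, TYK2 and JAK2, which phosphorylate STAT transcription factors. Together with IRF9 or as pairs, these factors bind interferon-stimulated response elements and gamma-activated sites in the promoters of effector genes that degrade viral RNA, stall translation, tether virions or modify proteins with ISG15. LEN directs the ubiquitin ligase substrate receptor cereblon to the transcription factors IKZF1 (Ikaros) and IKZF3, which are then degraded, and AI-10-104 is a small molecule directed at CBFβ, the subunit that RUNX factors need to bind DNA stably.

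Between 16352548 and 31386210 reads per sample fell on genes, and the LEN+RUNXi samples were among the shallower ones, at 16352548 to 20419807. All 9 plasma cell markers looked at were detected, with mean levels of 3285 RPKM (reads per kilobase of gene length and per 1000000 reads) for JCHAIN, 523 for XBP1, 217 for MZB1, 207 for IRF4, 180.4 for TNFRSF17, 146 for SDC1, 33.2 for PRDM1, 31.5 for CD38 and 22.9 for SLAMF7. SLAMF7 was higher with RUNXi than with DMSO (log2 fold change 0.69, SE 0.063, limma adjusted p = 4.27e-05). Of 5 T cell, 5 myeloid, 4 stromal and 4 mature B cell markers, CD3E alone passed the minimum, with 4 to 19 reads per sample, and no other had more than 9 reads in any sample. In bulk RNA, a smaller share of cells carrying a transcript and less of it per cell cannot be told apart.

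The members spanned a wide range of levels. BST2 (tetherin, which holds budding virions at the membrane), ADAR (which edits double-stranded RNA) and LAP3 (an aminopeptidase) were the highest, with means over all samples of 170.4, 126 and 70.1 RPKM. DDX60 (an RNA helicase), PARP9 and IFI44 were the lowest, at 0.0667, 0.0806 and 0.0918 RPKM. The mean was at least 10 RPKM for 7 members, from 1 to 10 RPKM for 11 and under 1 RPKM for 14. OASL averaged 7.67 reads in DMSO and IFIT3 3.67 reads with RUNXi, and both averaged under 10 over the 6 samples without LEN, so they passed the minimum through the samples in which they were high. A difference from those samples was favoured by the minimum, and the counts are therefore given also for the other 30 members.

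**Figure D1:**
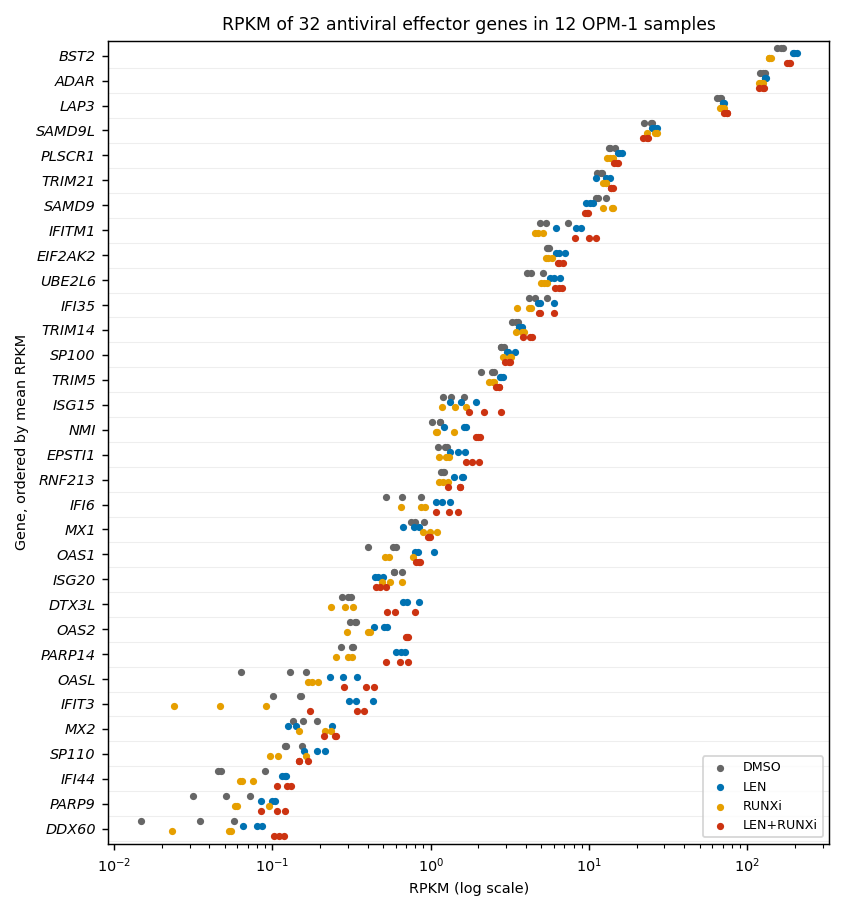
RPKM on a log scale of the 32 members, ordered by their mean, with 1 point for each of the 12 samples coloured by condition. Levels ran from 0.0667 RPKM for DDX60 to 170.4 RPKM for BST2, and the conditions lie close together for ADAR and LAP3 and apart for IFIT3 and DTX3L.

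RefSeq promoters on GRCh38.p14, each 300 bases long with 250 bases before and 50 from the start site on, were matched by symbol for 42 of the 49 listed genes and 29 of the 32 members; OAS2, OASL, IFIT2, IFITM2, MX2, USP18 and TRIM22 were not matched. The core of the interferon-stimulated response element, searched as GAAANNGAA on both strands, was in 20 of the 29 member promoters (69%), compared with 8.29% of all 27305 promoters. The gamma-activated site, TTCNNNGAA, which can share bases with the first motif, was in 9 of 29 (31.0%, compared with 7.88% of all promoters). RUNX letters (TGTGGT or TGCGGT) were in 3 of 29 (10.3%, compared with 19.4%) and the Ikaros core TGGGAA in 5 of 29 (17.2%, compared with 24.3%). Of the 11 matched members that rose in a comparison with DMSO, 9 held GAAANNGAA, 6 the gamma-activated site, 2 the RUNX letters and 0 the Ikaros core. Of the 18 that did not rise, the numbers were 11, 3, 1 and 5. These splits were not tested. GAAANNGAA requires 2 bases between its parts, so a spacing of 1 base, such as that in the OAS1 promoter, was not counted. A match is a description of the letters and not of binding. Only the first promoter entry of each symbol was searched, so other start sites of a gene were not covered. Shown here, 5′ to 3′ on each gene's strand with GAAANNGAA matches of either strand in capitals, are the promoters of the matched members called in the most comparisons (DTX3L, PARP14 and IFITM1) and of MX1 and ADAR, which were called in none. Positions are relative to the start site, where -1 is the base before it. The matches began at -6 in DTX3L, at -29 in PARP14 and at -40 and -6 in IFITM1. Those of MX1 began at 12 and 18 and overlap, and the ADAR promoter that was searched had none.
DTX3L (chr3:122564088-122564387, plus strand): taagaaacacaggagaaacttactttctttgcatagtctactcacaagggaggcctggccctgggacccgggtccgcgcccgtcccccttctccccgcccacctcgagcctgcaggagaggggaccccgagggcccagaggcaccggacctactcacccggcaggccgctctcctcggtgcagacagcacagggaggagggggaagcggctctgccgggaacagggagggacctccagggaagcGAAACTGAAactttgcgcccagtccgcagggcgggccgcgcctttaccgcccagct
PARP14 (chr3:122680589-122680888, plus strand): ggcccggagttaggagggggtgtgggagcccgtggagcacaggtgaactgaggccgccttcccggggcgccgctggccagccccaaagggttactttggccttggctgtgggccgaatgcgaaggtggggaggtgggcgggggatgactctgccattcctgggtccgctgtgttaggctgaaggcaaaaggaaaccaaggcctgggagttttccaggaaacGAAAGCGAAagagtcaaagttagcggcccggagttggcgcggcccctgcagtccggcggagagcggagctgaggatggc
IFITM1 (chr11:313790-314089, plus strand): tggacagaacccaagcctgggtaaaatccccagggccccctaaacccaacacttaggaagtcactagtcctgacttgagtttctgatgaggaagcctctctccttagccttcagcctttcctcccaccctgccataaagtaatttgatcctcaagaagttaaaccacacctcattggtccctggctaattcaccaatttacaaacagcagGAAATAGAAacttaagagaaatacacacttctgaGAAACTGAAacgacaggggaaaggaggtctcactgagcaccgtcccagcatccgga
MX1 (chr21:41420308-41420607, plus strand): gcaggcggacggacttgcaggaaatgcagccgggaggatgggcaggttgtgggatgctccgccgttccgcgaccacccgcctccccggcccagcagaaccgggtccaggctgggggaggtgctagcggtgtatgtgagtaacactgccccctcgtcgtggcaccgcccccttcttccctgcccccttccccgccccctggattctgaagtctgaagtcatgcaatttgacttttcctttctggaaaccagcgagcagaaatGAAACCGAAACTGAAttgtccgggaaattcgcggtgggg
ADAR (chr1:154627948-154628247, minus strand): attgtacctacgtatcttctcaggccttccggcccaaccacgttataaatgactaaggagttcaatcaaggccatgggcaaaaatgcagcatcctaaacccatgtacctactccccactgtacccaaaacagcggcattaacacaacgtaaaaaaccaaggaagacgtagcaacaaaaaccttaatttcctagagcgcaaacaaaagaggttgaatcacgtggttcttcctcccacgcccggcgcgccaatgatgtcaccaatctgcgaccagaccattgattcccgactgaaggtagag

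Calls needed a limma adjusted p of at most 0.05, over all 12816 genes tested, and a change of at least 0.32 in either direction on the log2(RPKM + 0.1) scale, which understates the change of low genes. The 3 comparisons with DMSO share the same DMSO samples. The members and the lists of related genes were chosen with earlier results of these data known. Shares above those of all genes are therefore a description and were not tested. With LEN, 3 of 32 members rose (DTX3L, PARP14 and UBE2L6), compared with 0.616% of all genes, and none fell, compared with 0.0780% of all genes. The members' median log2 fold change with LEN was 0.29, compared with -0.00029 for all genes, and 29 of 32 were above 0 (90.6%, compared with 49.9% of all genes). With RUNXi, none of the 32 rose or fell, compared with 0.702% and 1.01% of all genes, and the median was 0.066, compared with 0.0085 for all genes. With LEN+RUNXi, 13 of 32 rose, compared with 2.65% of all genes, none fell, compared with 0.726%, and the median was 0.32, compared with 0.024 for all genes. Without OASL and IFIT3 the counts up were 3 of 30 with LEN and 12 of 30 with LEN+RUNXi. The 13 were the 3 genes that rose with LEN and OAS1, OAS2, OASL, DDX60, IFITM1, ISG15, NMI, IFI6, IFI44 and EPSTI1.

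At an unadjusted p under 0.05 in limma, 21 members were up and 2 down with LEN, compared with 10.7% of all genes in either direction. With RUNXi 3 were up and 2 down, compared with 20.6% of all genes, and with LEN+RUNXi 25 were up and 2 down, compared with 23.0%. Limma's voom on the reads called 8 members up with LEN, OASL and IFIT3 among them, where it called 122 of the 12816 genes up. It called none either way with RUNXi (132 genes up and 191 down), 13 up with LEN+RUNXi, OASL among them (378 genes up), and no member down in these comparisons. The count with LEN depended on single samples and on the fit, from 2 without LEN replicate 1 or LEN replicate 3 to 5 without LEN+RUNXi replicate 3, and that with LEN+RUNXi fell from 13 to 8 without DMSO replicate 2 or without LEN+RUNXi replicate 1. A pseudocount of 1 in place of 0.1, which shrinks the folds of low genes, also left 8, with OAS1, OASL, DDX60, PARP14 and IFI44 lost. With a minimum mean of 0.5 RPKM, 22 members were tested, without DTX3L, PARP14, OAS2, OASL, DDX60 and IFI44, and 1 rose with LEN and 5 with LEN+RUNXi, with ISG15 and OAS1 lost among those still tested.

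**Figure D2:**
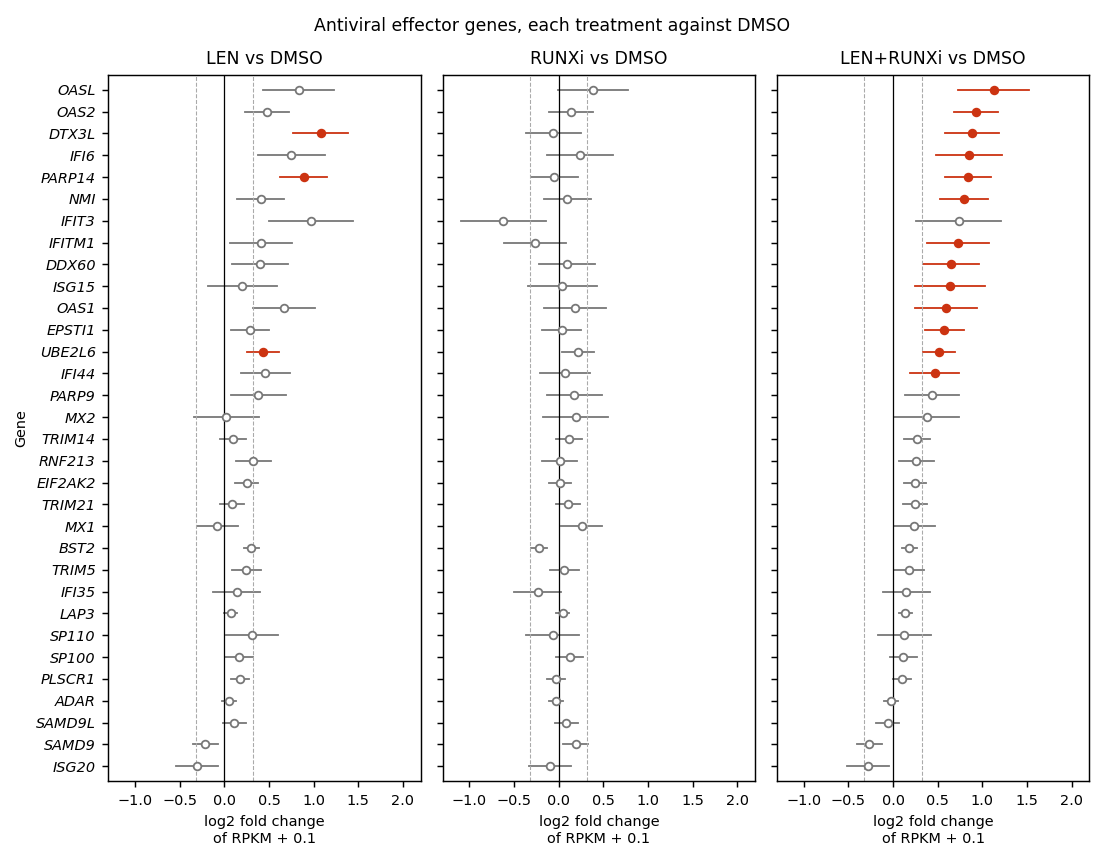
Log2 fold change of RPKM + 0.1 of the 32 members against DMSO for LEN, RUNXi and LEN+RUNXi, with 95% confidence intervals from limma; filled red points were called up, open points were not called, and dashed lines mark 0.32 in either direction. 3 members are filled for LEN, none for RUNXi and 13 for LEN+RUNXi.

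The ADP-ribosylation genes held the largest changes that were called with LEN. DTX3L, a ubiquitin ligase that works as a pair with PARP9, and PARP14, a mono-ADP-ribosyltransferase, more than doubled with LEN and with LEN+RUNXi, and their RUNXi samples overlapped those of DMSO. The 3 genes lie in 1 stretch of chromosome 3 (GENCODE 44, GRCh38), PARP9 at 122527924 to 122564577 on the minus strand, DTX3L at 122564338 to 122575203 on the plus strand and PARP14 at 122680839 to 122730840 on the plus strand. Exons of DTX3L and PARP9 overlap head to head, and the strand setting of the counting is not given in the sources used here, so reads there may be split between the 2.

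DTX3L was at 0.298, 0.316 and 0.277 RPKM in DMSO, 0.838, 0.671 and 0.710 with LEN, 0.236, 0.288 and 0.322 with RUNXi, and 0.795, 0.530 and 0.594 with LEN+RUNXi. Every sample with LEN, alone or combined, was above every DMSO and RUNXi sample. DTX3L rose 2.49-fold with LEN (log2 fold change 1.08, SE 0.14, limma adjusted p = 0.00213) and 2.15-fold with LEN+RUNXi (log2 fold change 0.88, SE 0.14, limma adjusted p = 0.00235). With RUNXi its log2 fold change was -0.061 (95% CI -0.37 to 0.24).

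PARP14 was at 0.324, 0.270 and 0.318 RPKM in DMSO, 0.687, 0.606 and 0.645 with LEN, 0.301, 0.253 and 0.319 with RUNXi, and 0.715, 0.525 and 0.637 with LEN+RUNXi. Again the 6 samples with LEN lay above the 6 without it. PARP14 rose 2.13-fold with LEN (log2 fold change 0.89, SE 0.12, limma adjusted p = 0.00261) and 2.06-fold with LEN+RUNXi (log2 fold change 0.84, SE 0.12, limma adjusted p = 0.00114). Its log2 fold change with RUNXi was -0.048 (95% CI -0.31 to 0.21). The calls of DTX3L and PARP14 with LEN and with LEN+RUNXi held with each of the 12 samples left out in turn.

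PARP9, at 0.0514 ± 0.0203 RPKM in DMSO, 0.0960 ± 0.0102 with LEN, 0.0706 ± 0.0209 with RUNXi and 0.104 ± 0.0182 with LEN+RUNXi (mean ± SD, n = 3), did not pass the test with LEN (log2 fold change 0.38, SE 0.14, limma adjusted p = 0.318) or with LEN+RUNXi (log2 fold change 0.44, SE 0.14, limma adjusted p = 0.0788), although the samples of both conditions lay above those of DMSO. With voom (adjusted p = 0.0213) and without the variance trend its change with LEN+RUNXi was called. It had 9 to 29 reads per sample. PARP12 had 1 read in 1 of the 12 samples.

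Of the enzymes that act on double-stranded RNA, 4 of the 6 members rose with LEN+RUNXi, compared with 2.65% of all genes, and none with either drug alone, compared with 0.616% with LEN and 0.702% with RUNXi. The 4 were OAS1, OAS2, OASL and DDX60. Of these, OASL passed the minimum through the samples in which it was high, which favoured its call. Voom called 3 of the 6 up with LEN, OAS1 (adjusted p = 0.0312), OAS2 (adjusted p = 0.0407) and OASL (adjusted p = 0.0448). OAS1, OAS2 and OAS3 make the 2-5A messenger that activates RNase L, OASL is a family member that enhances RNA sensing, EIF2AK2 (PKR) phosphorylates a translation initiation factor, and DDX60 is a helicase that aids RNA sensors. OAS1, OAS3 and OAS2 are neighbours on chromosome 12 (112905856 to 113011723 from the start of OAS1 to the end of OAS2), and, as for the IFIT genes, reads shared by these related sequences could be split between them, while OASL lies further along it at 121017763 to 121039246.

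OAS2 was at 0.309, 0.331 and 0.336 RPKM in DMSO, 0.506, 0.441 and 0.528 with LEN, 0.413, 0.399 and 0.296 with RUNXi, and 0.722, 0.712 and 0.694 with LEN+RUNXi. The LEN+RUNXi samples lay above all others, and the LEN samples lay above those of DMSO and RUNXi. OAS2 rose 2.18-fold with LEN+RUNXi (log2 fold change 0.93, SE 0.11, limma adjusted p = 0.000326). With LEN the change of 1.51-fold did not pass (log2 fold change 0.47, SE 0.11, limma adjusted p = 0.0771), and with RUNXi it was 1.14-fold (log2 fold change 0.13, SE 0.11, limma adjusted p = 0.550).

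OASL was at 0.128, 0.163 and 0.0630 RPKM in DMSO, 0.230, 0.279 and 0.342 with LEN, 0.177, 0.167 and 0.193 with RUNXi, and 0.392, 0.438 and 0.285 with LEN+RUNXi. The LEN+RUNXi and LEN samples overlapped each other and were above all DMSO and RUNXi samples, and the RUNXi samples were above those of DMSO. OASL had low reads in DMSO, which favoured a difference. In the main fit it had the largest log2 fold change of any member with LEN+RUNXi, 3.15-fold (log2 fold change 1.13, SE 0.18, limma adjusted p = 0.00267). It also had the largest with RUNXi, 1.51-fold, which did not pass (log2 fold change 0.38, SE 0.18, limma adjusted p = 0.260). With LEN it was 2.40-fold (log2 fold change 0.83, SE 0.18, limma adjusted p = 0.0517). These values rest on 3 to 22 reads per sample, and with the reads thinned to the smallest library the call with LEN+RUNXi was lost (adjusted p = 0.0762).

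OAS1 was at 0.603, 0.576 and 0.402 RPKM in DMSO, 0.833, 0.792 and 1.05 with LEN, 0.777, 0.548 and 0.514 with RUNXi, and 0.849, 0.803 and 0.853 with LEN+RUNXi. The LEN and LEN+RUNXi samples overlapped and were above those of DMSO. OAS1 rose 1.58-fold with LEN+RUNXi (log2 fold change 0.59, SE 0.16, limma adjusted p = 0.0396), and the change of 1.69-fold with LEN did not pass (log2 fold change 0.67, SE 0.16, limma adjusted p = 0.0760). The call with LEN+RUNXi was lost, with adjusted p up to 0.141, without DMSO replicate 2 or 3, LEN replicate 1 or any of the 3 LEN+RUNXi samples, and under 5 of the 12 other settings.

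DDX60 was at 0.0570, 0.0348 and 0.0148 RPKM in DMSO, 0.0649, 0.0862 and 0.0803 with LEN, 0.0231, 0.0534 and 0.0545 with RUNXi, and 0.119, 0.109 and 0.103 with LEN+RUNXi. The LEN+RUNXi samples were the highest of all, and the LEN samples were above those of DMSO and RUNXi. DDX60 rose 3.11-fold with LEN+RUNXi (log2 fold change 0.65, SE 0.15, limma adjusted p = 0.0173), from 3 to 25 reads per sample, and it was 2.17-fold with LEN (log2 fold change 0.40, SE 0.15, limma adjusted p = 0.308). The call was lost, with adjusted p up to 0.0693, without DMSO replicate 2, DMSO replicate 3 or LEN+RUNXi replicate 1.

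ADAR stayed between 118.1 and 131.6 RPKM in all 12 samples, with log2 fold changes of 0.051 with LEN, -0.034 with RUNXi and -0.021 with LEN+RUNXi (95% CI -0.10 to 0.06). EIF2AK2 was at 5.51 ± 0.0821 RPKM in DMSO, 6.58 ± 0.441 with LEN, 5.58 ± 0.263 with RUNXi and 6.56 ± 0.254 with LEN+RUNXi (mean ± SD, n = 3), and its change with LEN+RUNXi passed the adjusted p but was under the fold threshold (log2 fold change 0.25, SE 0.058, limma adjusted p = 0.0223).

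The IFIT proteins bind foreign RNA ends, and IFIT3 was the only one of the 4 listed to pass the minimum, with 2 to 29 reads per sample. IFIT3 was at 0.101, 0.151 and 0.149 RPKM in DMSO, 0.435, 0.335 and 0.306 with LEN, 0.0464, 0.0239 and 0.0913 with RUNXi, and 0.381, 0.345 and 0.172 with LEN+RUNXi. The samples of LEN and of LEN+RUNXi were above those of DMSO, and the RUNXi samples were below them. With LEN the mean was 2.68 times that of DMSO (log2 fold change 0.97, SE 0.22, limma adjusted p = 0.0595), with LEN+RUNXi 2.24 times (log2 fold change 0.74, SE 0.22, limma adjusted p = 0.0583) and with RUNXi 0.402 times (log2 fold change -0.62, SE 0.22, limma adjusted p = 0.134), and none of these passed. IFIT3 passed the minimum through the samples with LEN, which favoured its rises over DMSO. Without LEN+RUNXi replicate 3 both changes with LEN, alone and combined, passed. Without RUNXi replicate 2 or RUNXi replicate 3 the change with LEN+RUNXi passed, with a limma adjusted p as low as 0.0127 among the alternatives. With other samples left out, the limma adjusted p was up to 0.254 with LEN and 0.198 with LEN+RUNXi.

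Of the membrane proteins, IFITM1 keeps virus from fusing at the cell surface, BST2 tethers virions, and PLSCR1 is a lipid scramblase. IFITM1 (chromosome 11, 310041 to 315272, plus strand) was at 7.42, 5.35 and 4.91 RPKM in DMSO, 8.97, 8.28 and 6.20 with LEN, 4.53, 4.77 and 5.12 with RUNXi, and 11.1, 8.10 and 10.0 with LEN+RUNXi. The LEN+RUNXi samples were above all DMSO and RUNXi samples, and the LEN samples overlapped those of DMSO. IFITM1 rose 1.65-fold with LEN+RUNXi (log2 fold change 0.73, SE 0.16, limma adjusted p = 0.0160), whereas with LEN it was 1.33-fold (log2 fold change 0.41, SE 0.16, limma adjusted p = 0.353) and with RUNXi 0.816-fold (log2 fold change -0.27, SE 0.16, limma adjusted p = 0.373). The call was lost, with adjusted p up to 0.0702, without DMSO replicate 2 or 3 or LEN+RUNXi replicate 1 or 3. IFITM1, IFITM2 and IFITM3 are closely similar in sequence, so the split of reads between them is uncertain, IFITM1 shares exon bases with another annotated gene on the same strand, and IFITM2 and IFITM3 had 3 reads and 1 read over all 12 samples.

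BST2 (chromosome 19, 17402939 to 17405630, minus strand) was at 167, 153 and 164 RPKM in DMSO, 205, 195 and 197 with LEN, 137, 142 and 136 with RUNXi, and 184, 177 and 188 with LEN+RUNXi. The 4 conditions did not overlap, in the order RUNXi, DMSO, LEN+RUNXi and LEN. Against DMSO its changes passed the adjusted p but were under the fold threshold, with LEN (log2 fold change 0.30, SE 0.039, limma adjusted p = 0.00213), with RUNXi (log2 fold change -0.22, SE 0.039, limma adjusted p = 0.00784) and with LEN+RUNXi (log2 fold change 0.18, SE 0.039, limma adjusted p = 0.0151). The changes with LEN alone and with RUNXi alone were opposite in sign. PLSCR1 was at 13.9 ± 0.573 RPKM in DMSO, 15.7 ± 0.472 with LEN, 13.6 ± 0.544 with RUNXi and 14.8 ± 0.432 with LEN+RUNXi (mean ± SD, n = 3) and was called in no comparison.

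ISG15 is a ubiquitin-like protein, UBE2L6 the enzyme that conjugates it, HERC5 and HERC6 ligases of the family, and USP18 the protease that removes it. ISG15 (chromosome 1, 1001138 to 1014540, plus strand) was at 1.34, 1.19 and 1.62 RPKM in DMSO, 1.93, 1.33 and 1.56 with LEN, 1.18, 1.68 and 1.43 with RUNXi, and 2.16, 1.74 and 2.79 with LEN+RUNXi. The LEN+RUNXi samples were above those of DMSO and RUNXi and overlapped those of LEN. ISG15 rose 1.61-fold with LEN+RUNXi (log2 fold change 0.64, SE 0.18, limma adjusted p = 0.0457), and it was 1.16-fold with LEN (log2 fold change 0.20, SE 0.18, limma adjusted p = 0.812) and 1.03-fold with RUNXi (log2 fold change 0.042, SE 0.18, limma adjusted p = 0.929). The call with LEN+RUNXi, on 18 to 38 reads per sample, was lost, with adjusted p up to 0.161, without any 1 of the DMSO samples, LEN replicate 3, RUNXi replicate 3, or LEN+RUNXi replicate 1 or 3, and under 7 of the 12 other settings, median-ratio rescaling among them.

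UBE2L6 was at 5.10, 4.06 and 4.31 RPKM in DMSO, 6.55, 5.68 and 5.98 with LEN, 4.96, 5.19 and 5.45 with RUNXi, and 6.71, 6.14 and 6.46 with LEN+RUNXi. The samples of LEN and of LEN+RUNXi were above those of DMSO and of RUNXi. UBE2L6 rose 1.35-fold with LEN (log2 fold change 0.43, SE 0.082, limma adjusted p = 0.0242) and 1.43-fold with LEN+RUNXi (log2 fold change 0.52, SE 0.082, limma adjusted p = 0.00222), and it was 1.16-fold with RUNXi (log2 fold change 0.21, SE 0.082, limma adjusted p = 0.162). The call with LEN was lost, with adjusted p up to 0.132, without DMSO replicate 2 or 3 or LEN replicate 1 or 3, and the call with LEN+RUNXi held with each of the 12 samples left out. USP18, HERC5 and HERC6 were under the minimum, with 76 reads, 1 read and 13 reads over all 12 samples.

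NMI and IFI35 pair with each other and bind interferon-activated factors. NMI was at 1.02, 1.15 and 1.15 RPKM in DMSO, 1.67, 1.62 and 1.22 with LEN, 1.10, 1.41 and 1.08 with RUNXi, and 1.92, 2.05 and 1.98 with LEN+RUNXi. The LEN+RUNXi samples were the highest of all, and those of LEN overlapped those of RUNXi but not of DMSO. NMI rose 1.80-fold with LEN+RUNXi (log2 fold change 0.79, SE 0.12, limma adjusted p = 0.00200), a call that held with each sample left out, and was 1.36-fold with LEN (log2 fold change 0.40, SE 0.12, limma adjusted p = 0.181) and 1.08-fold with RUNXi (log2 fold change 0.098, SE 0.12, limma adjusted p = 0.704). IFI35 was called in no comparison in the main fit, with a log2 fold change of 0.15 with LEN+RUNXi against DMSO (limma adjusted p = 0.515). Its change in LEN+RUNXi against RUNXi (limma adjusted p = 0.055) was called with the replicate block. That change was also called without DMSO replicate 1, LEN replicate 1 or RUNXi replicate 2.

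Among the other interferon-induced proteins, EPSTI1 (epithelial stromal interaction 1), IFI6 (a mitochondrial and ER protein) and IFI44 (a cytoplasmic protein) rose with LEN+RUNXi. EPSTI1 was at 1.11, 1.23 and 1.26 RPKM in DMSO, 1.48, 1.33 and 1.66 with LEN, 1.25, 1.14 and 1.30 with RUNXi, and 1.82, 1.68 and 2.02 with LEN+RUNXi. The LEN+RUNXi samples were above all others, and those of LEN were above those of DMSO and RUNXi. EPSTI1 rose 1.53-fold with LEN+RUNXi (log2 fold change 0.58, SE 0.10, limma adjusted p = 0.00406), which held with each sample left out, and was 1.24-fold with LEN (log2 fold change 0.29, SE 0.10, limma adjusted p = 0.270).

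IFI6 was at 0.519, 0.654 and 0.874 RPKM in DMSO, 1.08, 1.18 and 1.33 with LEN, 0.919, 0.867 and 0.653 with RUNXi, and 1.08, 1.49 and 1.31 with LEN+RUNXi. The 6 samples with LEN were above the 6 without it. IFI6 rose 1.90-fold with LEN+RUNXi (log2 fold change 0.85, SE 0.17, limma adjusted p = 0.0101), and the change of 1.75-fold with LEN did not pass (log2 fold change 0.75, SE 0.17, limma adjusted p = 0.0620). With RUNXi it was 1.19-fold, next after OASL and MX1 in that comparison (log2 fold change 0.24, SE 0.17, limma adjusted p = 0.474). IFI6, which shares exon bases with LINC02574 on the same strand, had 13 to 33 reads per sample, and with the reads thinned to the smallest library, an alternative chosen after the data were seen, the call with LEN+RUNXi was lost (adjusted p = 0.105).

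IFI44 was at 0.0454, 0.0471 and 0.0891 RPKM in DMSO, 0.122, 0.119 and 0.115 with LEN, 0.0625, 0.0643 and 0.0752 with RUNXi, and 0.130, 0.106 and 0.124 with LEN+RUNXi. Again the 6 samples with LEN were above the 6 without it. IFI44 rose 1.99-fold with LEN+RUNXi (log2 fold change 0.47, SE 0.13, limma adjusted p = 0.0420), and with LEN it was 1.97-fold (log2 fold change 0.46, SE 0.13, limma adjusted p = 0.136). Its call, on 9 to 23 reads per sample, was lost without any 1 sample other than DMSO replicate 3, with adjusted p up to 0.152. The deposited length of IFI44, 6320 bases, is 3.1 times its exons in GENCODE 44, so its RPKM relative to other genes depends on the annotation used.

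SAMD9 and SAMD9L, neighbours on chromosome 7 (93099513 to 93148385 over both), restrict poxviruses and act on translation. SAMD9 went the other way from most members and was at 11.1, 11.4 and 12.7 RPKM in DMSO, 10.1, 9.61 and 10.6 with LEN, 13.9, 12.3 and 14.1 with RUNXi, and 9.75, 9.93 and 9.49 with LEN+RUNXi. The samples with LEN, alone or combined, were all below those of DMSO and RUNXi, and those of RUNXi overlapped those of DMSO. Against DMSO, SAMD9 was 0.861-fold with LEN (log2 fold change -0.21, SE 0.064, limma adjusted p = 0.177), 1.14-fold with RUNXi (log2 fold change 0.19, SE 0.064, limma adjusted p = 0.115) and 0.827-fold with LEN+RUNXi, where the change passed the adjusted p but was under the fold threshold (log2 fold change -0.27, SE 0.064, limma adjusted p = 0.0235). SAMD9L, at 24.0 ± 1.46 RPKM in DMSO, 25.9 ± 0.841 with LEN, 25.5 ± 1.99 with RUNXi and 23.0 ± 0.881 with LEN+RUNXi (mean ± SD, n = 3), was called in no comparison.

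**Figure D3:**
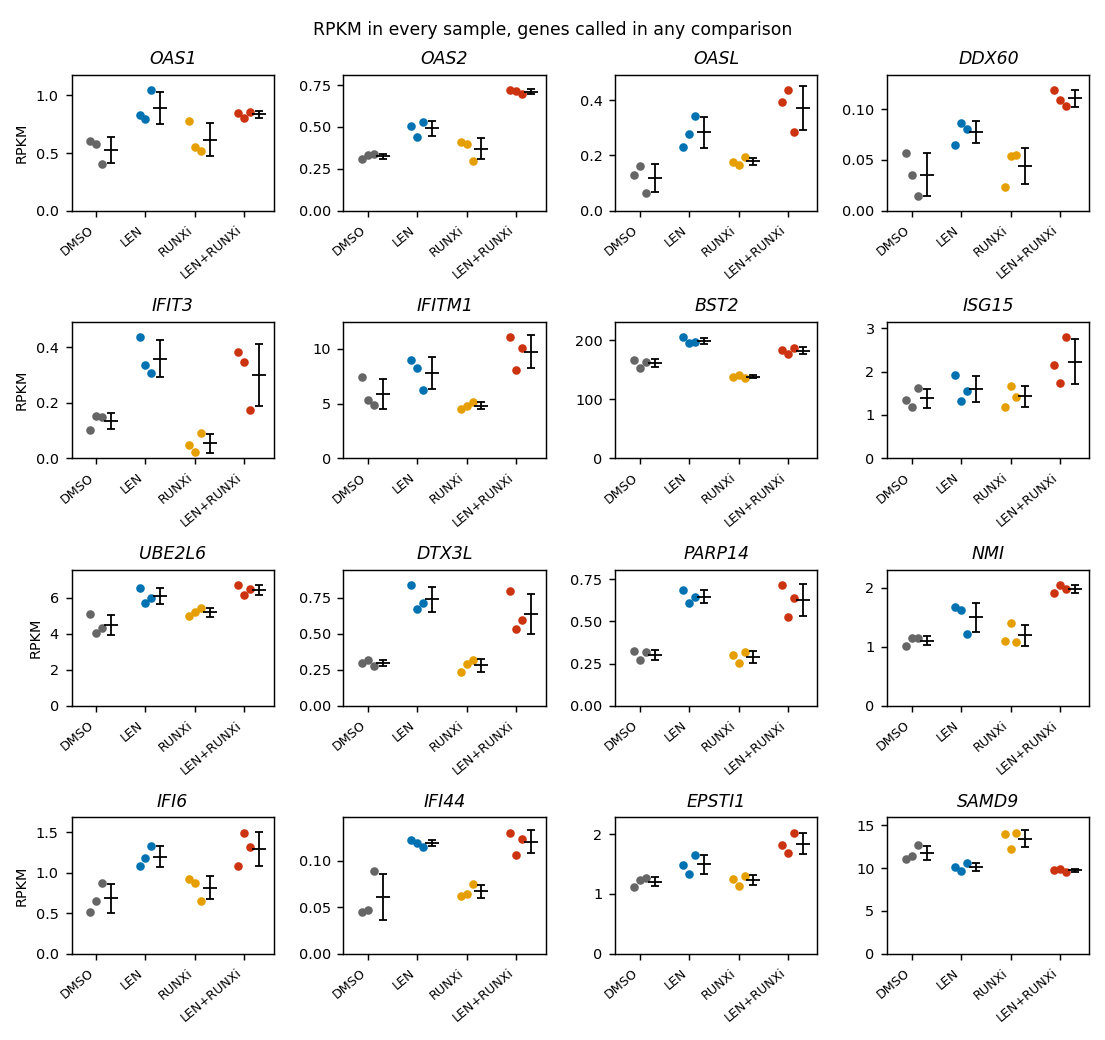
RPKM in every sample (coloured points, 3 per condition) of the 16 members called in any comparison, with the mean and SD beside them in black and axes that start at 0. DTX3L, PARP14, IFI6 and IFI44 are high in the 6 samples with LEN, OAS2, NMI, DDX60 and EPSTI1 are highest with LEN+RUNXi, BST2 and IFIT3 are lowest with RUNXi, and SAMD9 is lowest with LEN, alone or combined.

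The other 16 members were called in no comparison: ADAR, EIF2AK2, IFI35, ISG20, LAP3, MX1, MX2, PARP9, PLSCR1, RNF213, SAMD9L, SP100, SP110, TRIM5, TRIM14 and TRIM21. None of the members among the GTPases and nucleotide enzymes, the nuclear body proteins SP100 and SP110, or the TRIM and RNF213 ubiquitin ligases was called. These groups held 3, 2 and 4 members, and at most 3.50% of all genes were called up or down in a comparison. With so few members, the lack of calls does not set these groups apart from all genes. MX1, a GTPase that traps viral nucleoproteins, had the second largest log2 fold change with RUNXi and was at 0.748, 0.793 and 0.909 RPKM in DMSO, 0.669, 0.849 and 0.785 with LEN, 1.10, 0.992 and 0.895 with RUNXi, and 0.988, 0.964 and 0.981 with LEN+RUNXi. The RUNXi samples overlapped those of DMSO and were above those of LEN, and the LEN+RUNXi samples were above those of DMSO. Its log2 fold changes were -0.081 with LEN, 0.26 with RUNXi and 0.24 with LEN+RUNXi (limma adjusted p = 0.900, 0.198 and 0.206). MX2, its paralog, was at 0.161 ± 0.0286 RPKM in DMSO, 0.168 ± 0.0609 with LEN, 0.199 ± 0.0458 with RUNXi and 0.238 ± 0.0218 with LEN+RUNXi (mean ± SD, n = 3) and had 14 to 20 reads per sample. ISG20, an exonuclease, had the lowest log2 fold change of any member with LEN (log2 fold change -0.31, SE 0.11, limma adjusted p = 0.270) and with LEN+RUNXi (log2 fold change -0.28, SE 0.11, limma adjusted p = 0.144).

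Ranked by log2 fold change, the members highest with LEN were DTX3L (1.08), IFIT3 (0.97), PARP14 (0.89), OASL (0.83) and IFI6 (0.75). The 95% intervals of these 5 overlap, from 0.77 to 1.38 for DTX3L to 0.38 to 1.12 for IFI6, so their order is not resolved. With RUNXi the range ran from 0.38 for OASL to -0.62 for IFIT3. With LEN+RUNXi the highest were OASL (1.13), OAS2 (0.93), DTX3L (0.88), IFI6 (0.85) and PARP14 (0.84), again with intervals that overlap, from 0.73 to 1.52 for OASL to 0.58 to 1.10 for PARP14. OASL and IFIT3 passed the minimum through the samples with LEN, which favoured their high ranks with LEN and that of OASL with LEN+RUNXi.

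The comparisons between treatments ask what each drug added to the other and use the same treated samples as those with DMSO. Adding RUNXi to LEN (LEN+RUNXi against LEN) raised 1 of 32 members, OAS2, compared with 1.01% of all genes, and lowered none, compared with 0.882%. OAS2 was 1.44-fold higher in LEN+RUNXi than in LEN (log2 fold change 0.45, SE 0.11, limma adjusted p = 0.0418), and the call was lost, with adjusted p up to 0.108, without any 1 sample of DMSO, LEN or LEN+RUNXi. The next largest differences were those of ISG15 (log2 fold change 0.44, SE 0.18, limma adjusted p = 0.193) and NMI (log2 fold change 0.39, SE 0.12, limma adjusted p = 0.0999). For DTX3L the difference was -0.19 (95% CI -0.50 to 0.11), for PARP14 -0.047 (95% CI -0.31 to 0.21) and for IFIT3 -0.23 (95% CI -0.71 to 0.24). The members' median was 0.023, compared with 0.025 for all genes. At an unadjusted p under 0.05, 7 members were higher and 2 lower, compared with 19.9% of all genes in either direction, and voom called 1 up and none down, with 142 and 116 of all 12816 genes.

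Adding LEN to RUNXi (LEN+RUNXi against RUNXi) raised 12 of 32 members, compared with 3.50% of all genes, and lowered 1, compared with 0.523%, with a median of 0.28 against 0.022 for all genes. Without OASL and IFIT3 the count was 10 of 30. The members raised were IFIT3, IFITM1, DTX3L, PARP14, OAS2, OASL, NMI, IFI6, ISG15, DDX60, EPSTI1 and BST2. IFIT3, with 3, 2 and 6 reads in the RUNXi samples, which favoured a difference, was at 5.56 times its level with RUNXi (log2 fold change 1.36, SE 0.22, limma adjusted p = 0.00370). IFITM1 followed at 2.02-fold (log2 fold change 0.99, SE 0.16, limma adjusted p = 0.00369), DTX3L at 2.27-fold (log2 fold change 0.94, SE 0.14, limma adjusted p = 0.00255) and PARP14 at 2.15-fold (log2 fold change 0.89, SE 0.12, limma adjusted p = 0.00142). BST2 was 1.32-fold (log2 fold change 0.40, SE 0.039, limma adjusted p = 0.000168), and the gene lowered was SAMD9, 0.723-fold (log2 fold change -0.46, SE 0.064, limma adjusted p = 0.00169).

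The other 7 members raised by LEN in the presence of RUNXi had log2 fold changes of 0.80 for OAS2, 0.74 for OASL, 0.69 for NMI, 0.61 for IFI6, 0.60 for ISG15, 0.56 for DDX60 and 0.54 for EPSTI1, with limma adjusted p from 0.00200 for OAS2 to 0.0447 for ISG15. Of these, OAS2, NMI and EPSTI1 held with each sample left out. The others were lost without at least 1 sample: OASL without RUNXi replicate 1 or 3 or LEN+RUNXi replicate 1 or 2 (adjusted p up to 0.0753), DDX60 without the same 4 samples (up to 0.116), IFI6 without RUNXi replicate 1 or 3 or LEN+RUNXi replicate 2 or 3 (up to 0.139), and ISG15 without DMSO replicate 1 or 2, LEN replicate 3, RUNXi replicate 1 or 3 or LEN+RUNXi replicate 1 or 3 (up to 0.170).

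With LEN directly against RUNXi, 5 of 32 members were higher, compared with 3.02% of all genes, and 1 was lower, compared with 1.31%, with a median of 0.24 against -0.0058 for all genes. Without OASL and IFIT3 the count was 4 of 30. IFIT3, from the same 3, 2 and 6 reads with RUNXi, was 6.66-fold (log2 fold change 1.59, SE 0.22, limma adjusted p = 0.000584), DTX3L 2.62-fold (log2 fold change 1.14, SE 0.14, limma adjusted p = 0.000254) and PARP14 2.22-fold (log2 fold change 0.94, SE 0.12, limma adjusted p = 0.000351). IFITM1 was 1.63-fold (log2 fold change 0.67, SE 0.16, limma adjusted p = 0.0174), a call lost without LEN replicate 1, LEN replicate 2 or RUNXi replicate 1 (adjusted p up to 0.0708). BST2 was 1.44-fold (log2 fold change 0.52, SE 0.039, limma adjusted p = 4.98e-06), with all LEN samples above all RUNXi samples. SAMD9 was 0.753-fold (log2 fold change -0.41, SE 0.064, limma adjusted p = 0.00153), lower with LEN than with RUNXi. The count of 5 rose to 8 without DMSO replicate 3.

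**Figure D4:**
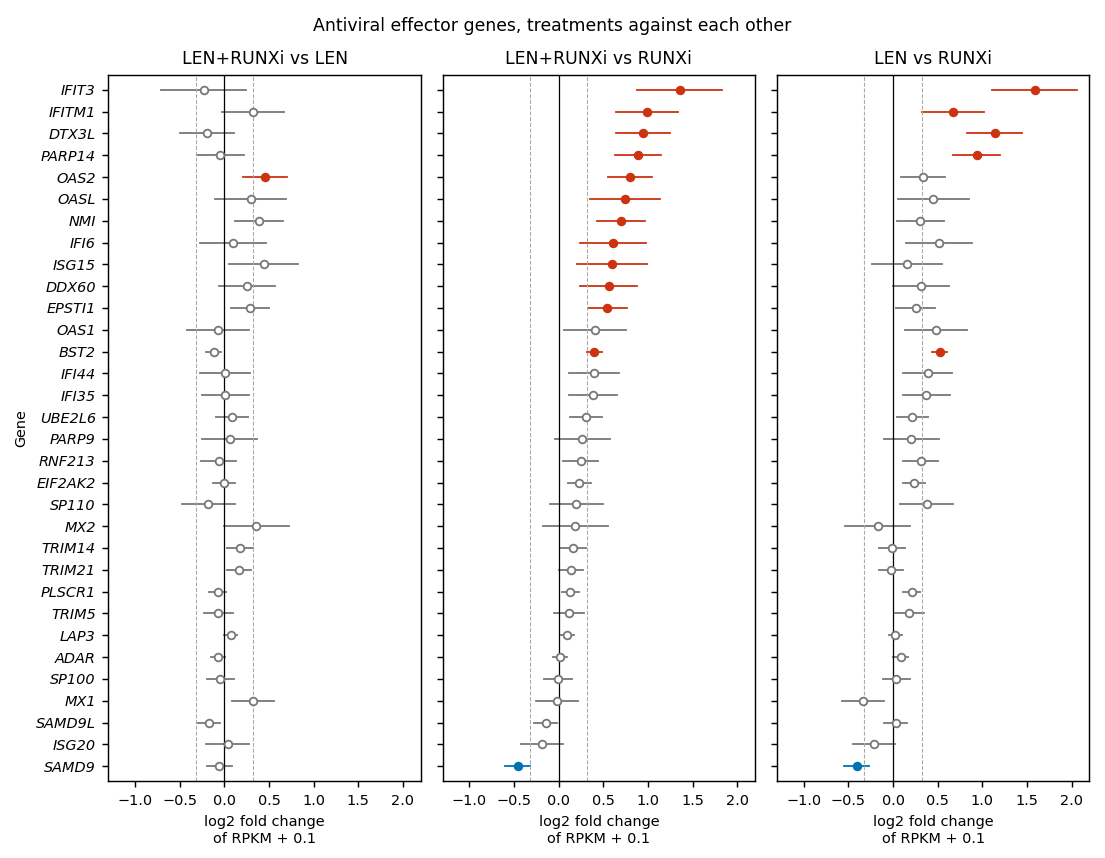
Log2 fold change of RPKM + 0.1 of the 32 members for LEN+RUNXi against LEN, LEN+RUNXi against RUNXi, and LEN against RUNXi, with 95% confidence intervals from limma; red and blue points were called up and down, open points were not called, and dashed lines mark 0.32 in either direction. OAS2 is the 1 filled point in the comparison with LEN, 12 points are red in the comparison with RUNXi, and SAMD9 is blue in both comparisons with RUNXi.

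Whether the effect of LEN differed with and without RUNXi was tested as the interaction, called by the adjusted p alone. No member was called in either direction, compared with 0.00780% of all genes up and 0% down, and 1 member was higher and 2 lower at an unadjusted p under 0.05, compared with 13.7% of all genes in either direction, while voom called no member and 2 genes up and 1 down in all. The highest interaction term was that of IFITM1 (0.59, 95% CI 0.095 to 1.08, limma adjusted p = 0.316), and the lowest were those of OAS1 (-0.26, 95% CI -0.75 to 0.23, adjusted p = 0.628) and SAMD9L (-0.26, 95% CI -0.44 to -0.077, adjusted p = 0.280). For OAS2 the term was 0.32 (95% CI -0.028 to 0.67), so the data do not show that the rise with both drugs departs from the sum of the single changes on the log2 scale. The genes that were called with LEN+RUNXi and not with LEN alone are therefore not shown to respond differently to LEN in the presence of RUNXi.

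Interferon genes other than IFNG were hardly detected. Of 21 interferon genes, 20 were under the minimum and 17 had no read in any sample, and the highest number of reads in a sample among the 20 was 3. IFNG, which encodes interferon gamma, was read 13 to 44 times in a sample, with means of 0.840 RPKM in DMSO, 1.05 with LEN, 0.837 with RUNXi and 0.815 with LEN+RUNXi. None of the 5 interferon receptor genes tested was called in any comparison, where at most 3.50% of all genes were called up or down.

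STAT2, at 8.18 ± 0.108 RPKM in DMSO, 9.95 ± 0.0222 with LEN, 8.18 ± 0.399 with RUNXi and 10.0 ± 0.437 with LEN+RUNXi (mean ± SD, n = 3), passed the adjusted p but not the fold with LEN (log2 fold change 0.28, SE 0.047, limma adjusted p = 0.0117) and with LEN+RUNXi (log2 fold change 0.29, SE 0.047, limma adjusted p = 0.00276), and was at -0.000544 with RUNXi. IRF9, at 5.20 ± 0.147 RPKM in DMSO, 5.87 ± 0.467 with LEN, 4.76 ± 0.352 with RUNXi and 6.09 ± 0.467 with LEN+RUNXi (mean ± SD, n = 3), did not pass against DMSO with LEN (log2 fold change 0.17, SE 0.075, limma adjusted p = 0.442) or with LEN+RUNXi (log2 fold change 0.22, SE 0.075, limma adjusted p = 0.0901).

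Of the 11 JAK, STAT and IRF genes tested, none was called with LEN or RUNXi and 3 rose with LEN+RUNXi, compared with 2.65% of all genes. These were IRF1 (log2 fold change 0.55, SE 0.039, limma adjusted p = 2.92e-06), a factor induced by interferons, IRF8 (log2 fold change 0.58, SE 0.14, limma adjusted p = 0.0246), which acts in B and myeloid cells, and the kinase JAK2 (log2 fold change 0.47, SE 0.11, limma adjusted p = 0.0205). Of 8 RNA and DNA sensors tested, 2 rose with LEN, 1 with RUNXi and 2 with LEN+RUNXi, compared with the same 0.616%, 0.702% and 2.65%. IFIH1 (MDA5), which senses long double-stranded RNA, rose with LEN (log2 fold change 0.38, SE 0.074, limma adjusted p = 0.0273), with RUNXi (log2 fold change 0.50, SE 0.074, limma adjusted p = 0.00207) and with LEN+RUNXi (log2 fold change 0.73, SE 0.074, limma adjusted p = 7.65e-05). TMEM173 (STING), which relays cytosolic DNA signals, rose with LEN (log2 fold change 0.50, SE 0.084, limma adjusted p = 0.0117) and with LEN+RUNXi (log2 fold change 0.72, SE 0.084, limma adjusted p = 0.000245), and its log2 fold change with RUNXi was -0.055. None of the 5 feedback regulators tested was called against DMSO, where the shares of all genes called up were the same 0.616%, 0.702% and 2.65%. In LEN+RUNXi against RUNXi 1 of the 5 was up, compared with 3.50% of all genes, and in LEN against RUNXi 1 was up, compared with 3.02%.

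Of 22 other interferon-induced antiviral genes tested, 3 rose with LEN, none with RUNXi and 4 with LEN+RUNXi, compared with 0.616%, 0.702% and 2.65% of all genes. DDX60L, the neighbour and paralog of DDX60, was at 0.0866, 0.106 and 0.134 RPKM in DMSO, 0.502, 0.373 and 0.399 with LEN, 0.130, 0.0838 and 0.139 with RUNXi, and 0.426, 0.295 and 0.279 with LEN+RUNXi. The 6 samples with LEN were above the 6 without it, and DDX60L rose 3.90-fold with LEN (log2 fold change 1.33, SE 0.16, limma adjusted p = 0.00169) and 3.06-fold with LEN+RUNXi (log2 fold change 1.04, SE 0.16, limma adjusted p = 0.00200). APOBEC3B, a DNA cytosine deaminase, rose 1.55-fold with LEN and 1.71-fold with LEN+RUNXi (limma adjusted p = 0.00750 and 0.000529). TRIM38, a ubiquitin ligase, rose 1.27-fold and 1.54-fold (limma adjusted p = 0.0213 and 7.80e-05). APOBEC3C rose with LEN+RUNXi, 1.5-fold (limma adjusted p = 0.0189).

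The 17 listed genes under the minimum included several that interferons raise strongly in other cells. CMPK2 and IFI27 had no read in any sample, which allows levels of up to 0.00228 and 0.00618 RPKM over the 12 samples together (3 reads, counting error only). OAS3, IFITM2, IFITM3, RSAD2, HERC5, TRIM22, PARP12, IFI44L and XAF1 had at most 3 reads in every sample. Summed over the 3 samples of a condition, IFIT1 had 1 read in DMSO, 2 with LEN, 4 with RUNXi and 8 with LEN+RUNXi, and IFIT2 had 0, 6, 2 and 7 reads. IFIT5 had 13, 23, 22 and 18 reads, USP18 had 13, 17, 25 and 21, LGALS3BP had 1, 7, 4 and 3, and HERC6 had 5, 4, 1 and 3. These sums are not scaled for depth, and no difference in them was tested.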

How the data were processed

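RNA was sequenced in 12 samples of OPM-1 cells, 3 biological replicates in each of 4 conditions. The authors aligned reads to GRCh38 with STAR and deposited gene RPKM values with gene lengths; the submitters' notes also list Cuffnorm, FastQC and DESeq2, and the annotation and counting settings are not given in the sources used here. Values times gene length, divided by a step fitted for each sample, gave whole reads (within 0.1) for 100% of values in every sample. Depth was 16352548 to 31386210 reads on genes, and limits on reads cover counting error only. The p-values measure the spread between these samples.

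Genes averaging at least 10 reads (12816) entered 1 limma fit (limma 3.58.1, R 4.3.3) of log2(RPKM + 0.1) over all 12 samples, with 1 mean per condition, a variance trend and Benjamini-Hochberg adjustment over all genes. The log values were tested because the deposited unit is normalized, and limma's voom on the computed reads was an alternative. Alternatives were 12 settings with all samples, each sample left out in turn and, chosen after the data were seen, reads thinned to the smallest library. The procedure was tested on simulated data, in which changes were put only into genes with more reads than the lowest members have. The simulation therefore does not cover calls on the members with the fewest reads. Members and lists were chosen with earlier results of these data known. Values in every sample were given for members called in any of 7 comparisons and for the 3 with the largest log2 fold change against DMSO with each treatment, and of related genes STAT2, IRF9 and those called against DMSO were named, and 1 related gene is not reported here. Positions are from GENCODE 44 and promoters from RefSeq. Python 3.11.15 with numpy 2.4.6, pandas 2.3.3 and matplotlib 3.10.9 served for tables and figures.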

Additional observations from a re-analysis of the deposited data

How the results depend on the processing

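No result changed sign as a called value. The number of members up with LEN (3) was 1 with a minimum of 0.5 RPKM, 5 without the variance trend, 8 with voom and 2 to 5 with a sample left out. Up with LEN+RUNXi (13), it was 8 with a pseudocount of 1, 5 with 0.5 RPKM and 8 to 13 with a sample left out. LEN+RUNXi against RUNXi (12 up) gave 5 with 0.5 RPKM. LEN against RUNXi (5 up) gave 2 with 0.5 RPKM, 8 without a fold threshold and 4 to 8 with a sample left out. With a minimum of 0.5 RPKM 22 members were tested. OAS2 in LEN+RUNXi against LEN (1 up) became 0 with pseudocounts of 0.01 or 1, any RPKM above 0 as the minimum, quantile normalization, only the conditions compared, the replicate block, a fold threshold of 0.58 or thinned reads, and was 0 to 1 with a sample left out. Why the call was lost in these settings was not tested. The count was also 0 with a minimum of 0.5 RPKM, where OAS2, at a mean of 0.474 RPKM, was not tested. With thinned reads 1 member rose with RUNXi (0 otherwise). Members down became 1 with RUNXi and with LEN+RUNXi without a fold threshold. SAMD9 down against RUNXi (1) became 0 with a threshold of 0.58, and down with LEN against RUNXi it became 2 without the variance trend or with voom. For the interaction, members down were 0 to 1, with 1 without RUNXi replicate 2.

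The median log2 fold change with LEN (0.295) was 0.146 with a pseudocount of 1, 0.187 with 0.5 RPKM, 0.195 with any RPKM above 0 and 0.26 to 0.317 with a sample left out. With RUNXi (0.066) it was 0.026 with a pseudocount of 1, 0.029 with thinned reads and 0.03 to 0.074. With LEN+RUNXi (0.324) it was 0.401 and 0.169 with pseudocounts of 0.01 and 1, 0.241 with 0.5 RPKM, 0.244 with any RPKM above 0, 0.26 with quantile normalization, 0.402 with voom and 0.291 to 0.379. Against RUNXi (0.282), the same settings gave 0.361, 0.141, 0.195, 0.158, 0.239, 0.374 and 0.26 to 0.316. LEN+RUNXi against LEN (0.023) gave -0.027 with quantile normalization and 0.005 to 0.057. LEN against RUNXi (0.245) gave 0.299 and 0.123 with pseudocounts of 0.01 and 1, 0.196 with 0.5 RPKM, 0.184 with any RPKM above 0 and 0.285 with voom. The interaction median (-0.008) gave -0.044 with quantile normalization and -0.04 to 0.021.

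The methods state no pairing by replicate number, and the main fit used none. Deviations of same-numbered samples correlated at -0.0172 to 0.237 (mean 0.0731), and those of differently numbered samples at -0.16 to 0.0557 (mean -0.0366). Because deviations from a condition's mean cancel within the condition, the second mean largely follows from the first and is no separate observation. Of 12 samples, 11 correlated best with their own number. The numbers may therefore mark samples handled together, a hint from the data only. With the replicate number as a block, the members up were 3 with LEN, 0 with RUNXi, 13 with LEN+RUNXi, 13 against RUNXi, 6 with LEN against RUNXi and 0 against LEN, and IFI35 was gained in the comparison of LEN+RUNXi with RUNXi (adjusted p = 0.0283) and of LEN with RUNXi (adjusted p = 0.0350). Of the named gene results, 1130 alternatives kept the side of the threshold, 128 lost a call and 40 gained one. Counting error is largest for the members with the fewest reads per sample, such as IFIT3 (2 to 29), OASL (3 to 22) and DDX60 (3 to 25).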
